A study of Rattus norvegicus with 4 samples.

Results

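The Cyp2c subfamily of cytochrome P450 genes was examined in RNA-seq tables of rat liver, taking every table row whose gene identifier began with Cyp2c. This rule gave 8 genes, *Cyp2c6v1*, *Cyp2c7*, *Cyp2c11*, *Cyp2c12*, *Cyp2c13*, *Cyp2c22*, *Cyp2c23* and *Cyp2c24*, out of 16999 named genes, each with 1 row in every table. There were 4 liver libraries, all from wild-type rats, with 1 library in each group, so no value has a replicate error and no difference between 2 libraries has a p-value. The control library of each agent (0 h) stands for inhalation only until consciousness was lost, and the other library (6 h) for inhalation of the same agent over 6 h, with sevoflurane at 4.5% or desflurane at 6%. Controls and anesthetized rats were also killed 6 h apart, so in any comparison of 6 h with 0 h the time of day and the length of anesthesia cannot be told apart. The sources used here give neither the sex, strain and age of the rats nor the number of livers behind a library.

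Cytochrome P450 enzymes of the Cyp2c subfamily sit in the endoplasmic reticulum of hepatocytes, where they oxidize drugs, steroids, retinoids and fatty acids with electrons passed on by P450 oxidoreductase, the product of *Por*. In rat liver several of them are known for sex differences set by the rhythm of growth hormone secretion, which reaches these genes largely through the transcription factor STAT5b. *Cyp2c11* and *Cyp2c13* are known as male-specific genes, *Cyp2c12* as a female-specific one and *Cyp2c7* as female-biased, whereas *Cyp2c6v1*, which encodes a phenobarbital-inducible enzyme, is made in both sexes.

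The Cyp2c genes stayed abundant as a group in all 4 libraries while their members moved apart. Their summed level, in TPM (a transcript level scaled for gene length and library size), was 6516 and 6165 for sevoflurane 0 h and 6 h, and 6431 and 5800 for desflurane 0 h and 6 h. *Cyp2c22* was 1.73-fold lower after 6 h with sevoflurane and 1.69-fold lower with desflurane, and it was the 1 of 7 members tested to pass the threshold over both agents, against 8.62% of all genes, a call that was lost without the sevoflurane 0 h library, without the desflurane 6 h library or without a minimum level. *Cyp2c12* was 2.26-fold higher after sevoflurane but not after desflurane, with 1 library on each side and controls that themselves differed 1.80-fold. *Cyp2c11*, *Cyp2c6v1* and *Cyp2c23* stayed within 1.26-fold of their own control with both agents.

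All 8 genes lie on chromosome 1 of the rat build rn6, the build named in the processing notes of the submitters. The rows fell into separate groups. *Cyp2c7* (147422999 to 148119857, minus strand) and *Cyp2c6v1* (147713901 to 147814394, plus strand) overlapped each other, and the row of *Cyp2c7* covered 697 kb. *Cyp2c11* (257676172 to 258004425, plus strand, 328 kb), *Cyp2c24* (258074860 to 258139176, plus strand), *Cyp2c12* (258709726 to 258766873, minus strand), *Cyp2c13* (258796624 to 258877023, minus strand) and *Cyp2c22* (259257658 to 259287666, minus strand) lay close together much further along, with *Cyp2c23* (263778510 to 263803150, minus strand) beyond them. In the newer assembly GRCr8, whose RefSeq gene table was used for gene order only, *Cyp2c6v1* and *Cyp2c7* stand between *Cyp2c24* and *Cyp2c12*, and the subfamily counts 17 symbols, of which 11 are protein-coding and 6 are pseudogenes. Of these, the 8 members were matched by symbol, and the protein-coding *Cyp2c55*, *Cyp2c66* and *Cyp2c7l1* have no row of their own in the tables analysed here. Reads from such close copies can fit more than 1 gene, and the sources used here do not say how they were shared out, so the split between neighbouring members is less certain than their sum.

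The 250 bases before the start of a gene were read from RefSeq promoters of GRCr8, which held an entry for 7 of the 8 members and none for *Cyp2c6v1*. They are shown for the most alike pair, whose levels lay far apart (*Cyp2c11* and *Cyp2c24*), for the next most alike pair (*Cyp2c12* and *Cyp2c13*) and for *Cyp2c22*. The sequences run from 5′ to 3′ on the strand of the gene and end at the base before the start, and capitals mark the letters TATAAA of a TATA box, where they begin between 60 and 20 bases before the start. This motif was chosen after the sequences had been seen. The windows are chr1:246174966-246175215 (plus strand) for *Cyp2c11*, chr1:246286091-246286340 (plus strand) for *Cyp2c24*, chr1:248677035-248677284 (minus strand) for *Cyp2c12*, chr1:248787189-248787438 (minus strand) for *Cyp2c13* and chr1:248980768-248981017 (minus strand) for *Cyp2c22*, all in GRCr8.
Cyp2c11: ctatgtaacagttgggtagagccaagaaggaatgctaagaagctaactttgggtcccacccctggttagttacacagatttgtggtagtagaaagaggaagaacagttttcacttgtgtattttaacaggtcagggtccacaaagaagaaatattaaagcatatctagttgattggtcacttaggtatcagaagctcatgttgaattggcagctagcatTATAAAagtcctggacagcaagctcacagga
Cyp2c24: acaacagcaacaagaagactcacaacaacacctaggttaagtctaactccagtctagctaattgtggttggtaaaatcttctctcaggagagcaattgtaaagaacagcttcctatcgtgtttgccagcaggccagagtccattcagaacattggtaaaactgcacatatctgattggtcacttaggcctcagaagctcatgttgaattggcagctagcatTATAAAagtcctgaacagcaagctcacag
Cyp2c12: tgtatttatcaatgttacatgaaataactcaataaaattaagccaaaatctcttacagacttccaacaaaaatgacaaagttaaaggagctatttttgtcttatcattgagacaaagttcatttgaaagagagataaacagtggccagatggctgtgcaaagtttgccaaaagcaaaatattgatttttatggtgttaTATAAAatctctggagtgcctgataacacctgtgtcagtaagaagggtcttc
Cyp2c13: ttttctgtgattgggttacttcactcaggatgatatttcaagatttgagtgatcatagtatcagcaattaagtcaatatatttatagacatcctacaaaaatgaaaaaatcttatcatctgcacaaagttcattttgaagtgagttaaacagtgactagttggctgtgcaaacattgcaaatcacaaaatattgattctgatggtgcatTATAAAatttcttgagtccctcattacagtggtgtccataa
Cyp2c22: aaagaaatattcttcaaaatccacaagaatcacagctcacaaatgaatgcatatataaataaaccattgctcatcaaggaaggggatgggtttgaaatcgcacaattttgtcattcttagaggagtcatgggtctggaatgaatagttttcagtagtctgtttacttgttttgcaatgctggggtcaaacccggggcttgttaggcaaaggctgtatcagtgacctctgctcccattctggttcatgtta

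TATAAA began 31 bases before the start in *Cyp2c11* and *Cyp2c7*, 29 in *Cyp2c24*, 41 in *Cyp2c13* and 52 in *Cyp2c12*, and was not found in this stretch in *Cyp2c22* and *Cyp2c23*. Of all 33469 rat promoters in the table, 2.26% held these letters in the same stretch, against 5 of the 7 members. Over the 300 bases from 250 before to 50 after the start, the promoters of *Cyp2c11* and *Cyp2c24* were 64.2% identical in a global alignment and those of *Cyp2c12* and *Cyp2c13* 63.1%, while the median of the 21 pairs was 51.5%. The promoters of *Cyp2c11* and *Cyp2c24* were thus the most alike of the pairs compared, yet *Cyp2c11* stood at between 991 and 7138 times the TPM of *Cyp2c24*. A half-site of nuclear receptors (AGGTCA or AGTTCA, either strand) was found in 5 of the 7 members (*Cyp2c7*, *Cyp2c11*, *Cyp2c12*, *Cyp2c13* and *Cyp2c22*) and in 27.9% of all promoters. TTGCNNAA, letters of the kind bound by C/EBP factors, was found in *Cyp2c12* and *Cyp2c22* and in 10.6% of all promoters. None of the 7 held the D-box of DBP and its relatives (TTATGTAA or TTACGTAA, in 1.01% of all promoters), the STAT5 and BCL6 type TTCNNNGAA (8.87%), the HNF4 type CAAAGTCC (1.4%), the HNF1 type GTTAATNAT (0.747%) or the E-box CACGTG (6.42%). Each type was searched in the letters given only, and other spellings were not counted. CAAAGTTCA, held by *Cyp2c12* and *Cyp2c13* above, was counted only through its AGTTCA half-site. These are matches of letters and not sites of binding.

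The levels within the family spanned from a TPM of 0.271 to 1936, and their order was much the same in every library. *Cyp2c11*, a testosterone hydroxylase and the main male-specific P450 of rat liver, stood at a TPM of 1772 in sevoflurane 0 h, 1936 in sevoflurane 6 h, 1365 in desflurane 0 h and 1521 in desflurane 6 h. It ranked first among the members in 3 libraries and second in desflurane 0 h, where *Cyp2c13* was at 1367. *Cyp2c11*, *Cyp2c13*, *Cyp2c22* and *Cyp2c6v1* together made up between 80.1% and 85.7% of the family total, and *Cyp2c7*, *Cyp2c23*, *Cyp2c12* and *Cyp2c24* held the fifth to the eighth place in all 4 libraries. Among the leading members several steps between neighbours were small in the controls. *Cyp2c22*, *Cyp2c13* and *Cyp2c6v1* followed each other at ratios of 1.11 and 1.08 in sevoflurane 0 h, and *Cyp2c13*, *Cyp2c11* and *Cyp2c6v1* were at 1367, 1365 and 1335 in desflurane 0 h, so the order of these neighbours rests on differences smaller than the 1.30-fold between the *Cyp2c11* values of the control livers. At 6 h some steps among the leading members were wider, 1.72-fold from *Cyp2c6v1* to *Cyp2c13* with sevoflurane and 2.01-fold from *Cyp2c13* to *Cyp2c22* with desflurane. The steps below *Cyp2c23* were much larger, at least 3.35-fold down to *Cyp2c12* and at least 19.9-fold from there to *Cyp2c24*.

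**Figure D1:**
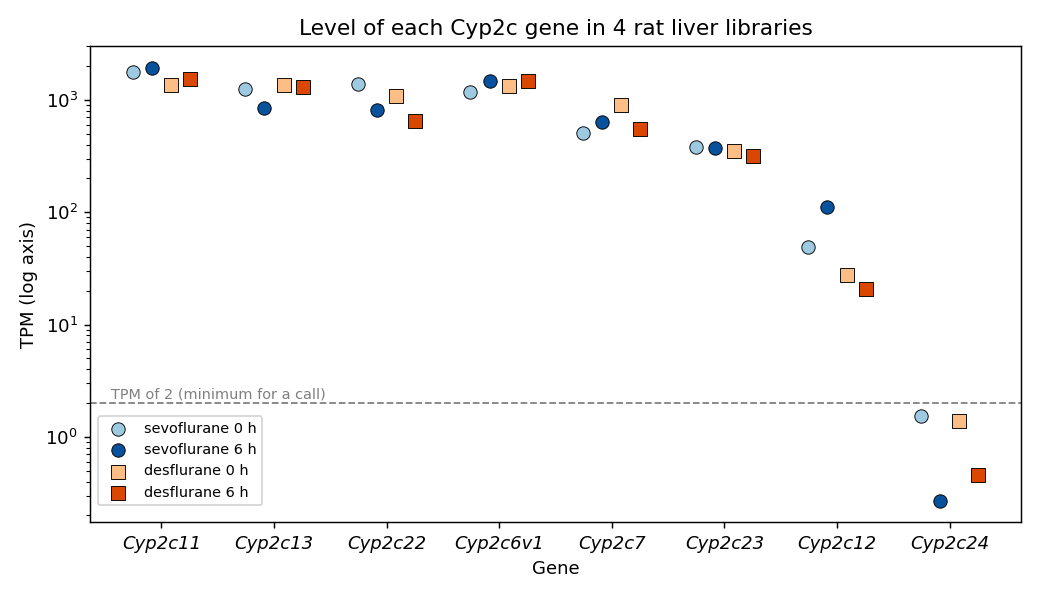
TPM of the 8 Cyp2c genes on a log axis, with 1 point per library (circles for sevoflurane, squares for desflurane, pale for 0 h and dark for 6 h) and a dashed line at a TPM of 2. The first 6 genes lie between 316 and 1936 in all libraries, *Cyp2c12* lies between 20.5 and 111, and *Cyp2c24* stays under the line.

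The male-specific members were far above the female-specific one in all 4 libraries. *Cyp2c11* exceeded *Cyp2c12*, a steroid sulfate hydroxylase, 36.0-fold in sevoflurane 0 h, 17.4-fold in sevoflurane 6 h, 49.9-fold in desflurane 0 h and 74.1-fold in desflurane 6 h. Of the 3 Y-linked genes in the tables, *Eif2s3y* was at a TPM of between 38.6 and 43.2 in the same libraries. *Ddx3y* was at no more than 0.137 and *Usp9y* at no more than 0.0112. Of the 10 male-biased liver genes listed, 1 was called with either agent, the fatty acid hydroxylase *Cyp4a2*, which was lower. None of the 6 female-biased genes in the tables was called with either agent. Among these, *A1bg*, *Cux2* and *Prlr* stayed under the minimum TPM of 2 in every library and could not be called. Among all named genes with a TPM above 2 in the higher library, 8.75% were called with sevoflurane and 9.65% with desflurane. *Cux2*, a female-specific repressor, was at 1.35 in sevoflurane 6 h and at no more than 0.163 in the other libraries, and *A1bg*, another female-specific gene, was at 1.38 against at most 0.617. These 2 low genes were chosen after their values had been seen, and the rest of the list did not follow them. *Sult2a6* and *Cyp2a1* had their lowest values in sevoflurane 6 h (53.4 and 154), and *Srd5a1* was highest in desflurane 0 h (106).

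With sevoflurane, 4 of the 8 members had a higher value at 6 h than at 0 h and 4 a lower value. A gene was called when its TPM was above 2 in the higher library and the ratio of the 2 libraries above 2, and 7 members passed that minimum. By this rule 1 member was called, *Cyp2c12*, against 8.75% of the 8270 named genes above the minimum (5.04% higher and 3.71% lower). *Cyp2c12* was at 49.2 in sevoflurane 0 h and at 111 in sevoflurane 6 h, a ratio of 2.26. The other members with higher values were *Cyp2c6v1* (1163 and 1460, ratio 1.26), *Cyp2c7* (505 and 632, ratio 1.25) and *Cyp2c11* (ratio 1.09). The lower values were those of *Cyp2c22* (1395 and 805, ratio 0.577), *Cyp2c13* (1254 and 847, ratio 0.675), *Cyp2c23* (377 and 373, ratio 0.99) and *Cyp2c24*. Among the abundant members the sevoflurane libraries therefore differed most at *Cyp2c22* and *Cyp2c13*, whose shares of the family total were 21.4% and 19.2% at 0 h and 13.1% and 13.7% at 6 h, beside 17.8% and 23.7% for *Cyp2c6v1*.

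With desflurane, 2 members had a higher value at 6 h and 6 a lower value, and none was called, against 9.65% of 8372 named genes (4.1% higher and 5.55% lower). *Cyp2c22* was at 1085 in desflurane 0 h and 643 in desflurane 6 h, a ratio of 0.592. *Cyp2c7*, a retinoic acid hydroxylase, was at 896 and 546, a ratio of 0.609. *Cyp2c12* was at 27.3 and 20.5, a ratio of 0.75, so its value was lower where that with sevoflurane was higher. *Cyp2c23*, an arachidonic acid epoxygenase best known from kidney, was at 354 and 316, a ratio of 0.893. *Cyp2c13* differed by 5.39%, with a sign that turned when the libraries were scaled by the median of ratios. The 2 members with higher values were *Cyp2c11* (ratio 1.11) and *Cyp2c6v1* (1335 and 1460, ratio 1.09).

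**Figure D2:**
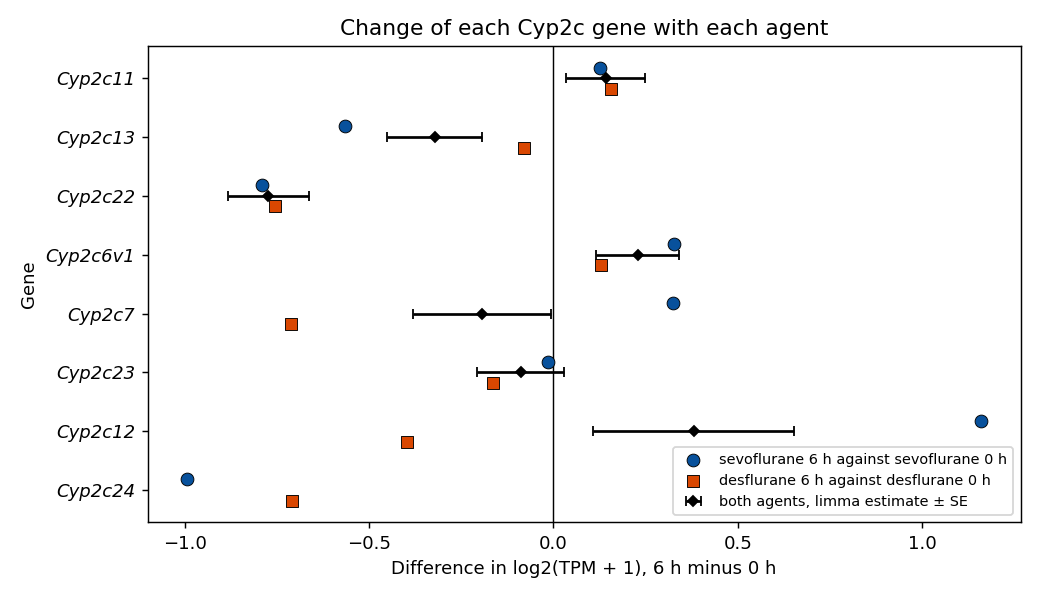
Difference in log2(TPM + 1) between 6 h and 0 h for each Cyp2c gene, with a circle for sevoflurane and a square for desflurane (1 library on each side), and a black diamond with the limma estimate over both agents and its standard error for the 7 genes tested. *Cyp2c22* lies at −0.79 and −0.75 with the 2 agents, whereas *Cyp2c12* and *Cyp2c7* lie on opposite sides of 0.

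The control livers, briefly exposed to different agents, show how far libraries of the same time stood apart. Between desflurane 0 h and sevoflurane 0 h no member was called, against 2.76% of 8263 named genes (1.96% higher and 0.799% lower in desflurane 0 h). The members that differed most were *Cyp2c12*, 1.80-fold lower in desflurane 0 h, and *Cyp2c7*, 1.78-fold higher there. The other 6 members were within 1.30-fold. For *Cyp2c7* the difference between the controls was larger than that between 0 h and 6 h with either agent, and the sign of its changes reversed when each 6 h library was set against the control of the other agent (log2 differences of −0.50 with sevoflurane and 0.11 with desflurane in place of 0.32 and −0.71). *Cyp2c22*, by contrast, was lower in both 6 h libraries (643 and 805) than in both controls (1085 and 1395), and *Cyp2c6v1*, read from its named row, was higher in both. These were the 2 of the 7 members above the mean level of 2 whose values at 0 h and 6 h did not overlap, against 51.0% of 8024 genes.

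At 6 h the livers of the 2 agents differed by the rule at 1 member, against 3.99% of 8229 named genes (2.21% higher and 1.77% lower with desflurane). *Cyp2c12* was at 20.5 with desflurane and 111 with sevoflurane, 5.42-fold lower with desflurane. *Cyp2c13* was 1.53-fold higher with desflurane (1293 against 847). *Cyp2c6v1* was at 1460 in both libraries, and *Cyp2c11*, *Cyp2c22*, *Cyp2c7* and *Cyp2c23* were between 13.6% and 21.5% lower with desflurane. Whether the agents differ in their effect on any member could not be tested, since each agent has 1 library per time.

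*Cyp2c24*, known mainly from prostate and kidney, was close to absent. It was at a TPM of 1.53 and 0.271 in sevoflurane 0 h and 6 h, and at 1.38 and 0.454 in desflurane 0 h and 6 h, with a mean read depth per base between 0.928 and 4.75. The libraries held between 3.50 and 5.57 Gb of aligned bases, the fewest in sevoflurane 0 h, and a TPM of 2 stood for a depth of between 4.72 and 7.28. Both 6 h values lay under both control values, but none reached the minimum for a call, and read counts are not given in the tables.

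The change over both agents was the only comparison with 2 libraries on each side, and it was tested with limma on log2(TPM + 1) with a term for the agent, which leaves 1 residual degree of freedom. The variance of a gene was therefore drawn largely from that of the other genes (10.9 prior degrees of freedom). A standard error given here is not a spread between replicate livers. Of the 7 members tested, 1 passed an adjusted p of 0.05, against 8.62% of all 8024 genes tested, and 2 (*Cyp2c22* and *Cyp2c13*) had an unadjusted limma p under 0.05, against 19.9%. The member past the adjusted threshold was the male-predominant *Cyp2c22*, which fell by 0.77 ± 0.11 (SE) on the log2 scale, from a mean TPM of 1240 at 0 h to 724 at 6 h (limma adjusted p = 0.000642, lower with both agents). The call was lost without the sevoflurane 0 h library (limma adjusted p = 0.218) and without the desflurane 6 h library (0.0982), in fits without the agent block, with estimates of −0.59 and −0.61, and also when no minimum level was set (0.110). *Cyp2c13* was lower with both agents (−0.32 ± 0.13, limma adjusted p = 0.181) and *Cyp2c6v1* higher with both (0.23 ± 0.11, limma adjusted p = 0.284), neither past the threshold. The limma estimates of *Cyp2c11* (0.14 ± 0.11, adjusted p = 0.540), *Cyp2c23* (−0.09 ± 0.12, adjusted p = 0.766), *Cyp2c7* (−0.19 ± 0.19, adjusted p = 0.661) and *Cyp2c12* (0.38 ± 0.27, adjusted p = 0.511) did not pass it either. The median log2 difference of the 7 members whose TPM averaged 1 or more was 0.13 with sevoflurane and −0.16 with desflurane, beside 0.05 and −0.10 over all 9201 genes at that level.

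Hemoglobin and other red blood cell markers had higher values at 6 h, some called with sevoflurane and none with desflurane. The summed TPM of the 7 red blood cell markers was 472 and 1261 in sevoflurane 0 h and 6 h, and 758 and 1401 in desflurane 0 h and 6 h, with 4 and 0 of them called higher. The 4, *Hba-a2*, *Hbb*, *Hbb-b1* and *Alas2*, had ratios between 1.78 and 1.99 with desflurane, just under the ratio of 2 for a call. The other markers, *Hba-a1*, *Slc4a1* and *Ahsp*, stayed under the minimum TPM of 2 in every library and could not be called. Of all named genes above the minimum, 8.75% were called with sevoflurane and 9.65% with desflurane. The 8 NK and T cell markers summed to 12.4, 5.73, 7.20 and 6.01 in the same order, with 3 called lower with sevoflurane and 1 with desflurane. Only *Nkg7*, *Klrk1* and *Prf1* passed the minimum for a call with sevoflurane, and only *Klrk1* with desflurane. *Klrk1*, a receptor of NK cells, was called lower with both agents (ratios of 0.337 and 0.272). The median log2 difference of the 4 NK and T cell markers whose TPM averaged 1 or more was −0.84 with sevoflurane but 0.12 with desflurane. With desflurane, *Nkg7* (0.942 and 1.51) and *Gzmm* (0.444 and 1.69) had higher values at 6 h. The part of the red blood cell, NK and T cell markers in the lower *Cyp2c22* values was not tested. All 10 hepatocyte markers averaged a TPM of 1 or more and none was called with either agent, 4 of 8 kidney tubule markers were at 0 in every library, and in bulk tissue fewer cells of a type and less RNA per cell cannot be told apart.

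The sums of the Cyp2b and Cyp3a subfamilies differed more between 6 h and 0 h than that of Cyp2c. The 6 Cyp2b genes summed to a TPM of 599.5 and 1691 with sevoflurane and to 584 and 1191 with desflurane, 2.82-fold and 2.04-fold higher at 6 h. Most of the control sums was *Cyp2b3*, which was not higher at 6 h (558 and 483 with sevoflurane, 542 and 509 with desflurane). The higher sums lay in *Cyp2b1* and *Cyp2b2*, the classic targets of phenobarbital-like inducers. The 5 Cyp3a genes, the targets of the pregnane X receptor, summed to 1.75-fold and 1.26-fold of their controls, while Cyp2c stood at 0.946 and 0.902. The share of Cyp2c in the TPM of all 73 P450 genes was 48.2% and 39.4% in sevoflurane 0 h and 6 h, and 42.2% and 39.4% in desflurane 0 h and 6 h. *Cyp2b1* alone was at 5.73 in sevoflurane 0 h and 790 in sevoflurane 6 h, and at 12.1 and 465 in the desflurane libraries, whereas *Cyp2c6v1*, the member known to respond to phenobarbital, was within 1.26-fold of its controls. Among the 24 other Cyp2 genes in the tables, sevoflurane 6 h had 2 called higher (*Cyp2b1* and *Cyp2b2*) and 0 lower, and desflurane 6 h had 3 higher and 1 lower, with *Cyp2e1* added on the higher side and *Cyp2f4* on the lower. All named genes above the minimum had shares called of 8.75% with sevoflurane and 9.65% with desflurane.

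**Figure D3:**
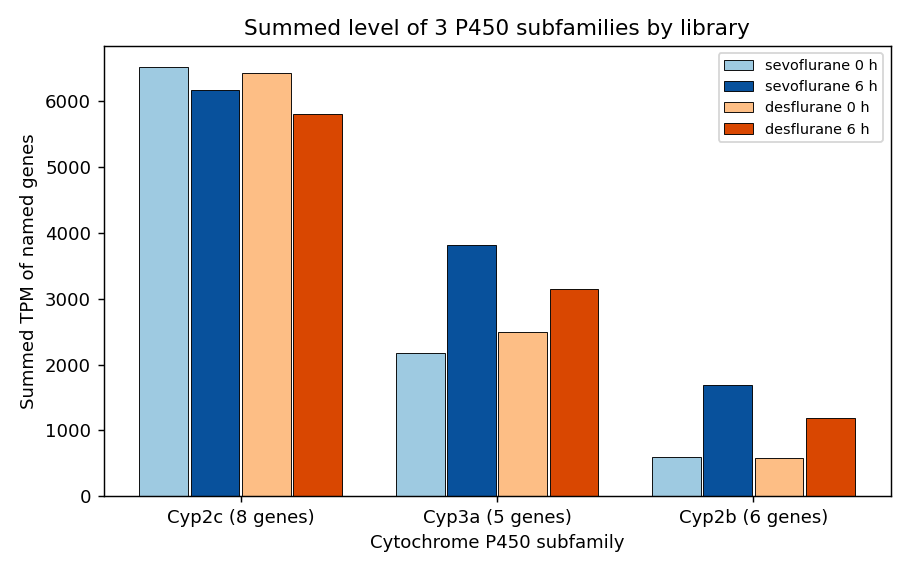
Summed TPM of the named genes of 3 P450 subfamilies in each library, as bars from 0 with 1 bar per library. The Cyp2c bars stay between 5800 and 6516, and the Cyp2b bars reach 1691 and 1191 at 6 h from 599.5 and 584 at 0 h.

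The electron donor of these enzymes moved in a different way from the enzymes. *Por* was at a TPM of 21.8 and 538 in sevoflurane 0 h and 6 h, and at 28.6 and 386 in desflurane 0 h and 6 h, ratios of 24.7 and 13.5. Of the 6 electron donor and chaperone genes, *Por* alone was called with either agent, against 8.75% (sevoflurane) and 9.65% (desflurane) of named genes above the minimum. *Cyb5a*, which encodes cytochrome b5, another electron donor, was at between 848 and 1081 in all libraries. The summed Cyp2c TPM was thus 299-fold that of *Por* in sevoflurane 0 h and 11.5-fold in sevoflurane 6 h, and 225-fold and 15.02-fold in desflurane 0 h and 6 h.

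Of the 27 listed regulators of Cyp2c and liver P450 transcription present in the tables, sevoflurane 6 h had 4 called higher and 3 lower, and desflurane 6 h had 5 higher and 6 lower. The share called over all named genes above the minimum was 8.75% with sevoflurane and 9.65% with desflurane. *Dbp*, a circadian activator known to act on the *Cyp2c6* promoter, was at a TPM of 0.400 and 87.9 in sevoflurane 0 h and 6 h, and at 1.92 and 44.8 in desflurane 0 h and 6 h. The related factor *Tef* (ratios of 6.93 and 2.72), the fatty acid receptor *Ppara* (3.30 and 3.42) and *Nr1i2*, which encodes the pregnane X receptor (3.83 and 2.66), were also called higher with both agents. In the growth hormone pathway, *Socs2*, a feedback inhibitor induced by the hormone, was called lower with both agents (44.5 and 12.5 with sevoflurane, 29.8 and 8.98 with desflurane), as was *Stat5a* (ratios of 0.393 and 0.326). *Stat5b*, the main mediator of sex-specific expression, was at 22.5 and 11.8 with sevoflurane and 21.4 and 12.0 with desflurane and was not called. The growth hormone receptor gene *Ghr* was at 189 and 175 with sevoflurane and 190 and 175 with desflurane. *Igf1*, also listed, was at 225 and 246 with sevoflurane and 244 and 202 with desflurane and was not called. *Cish* was under the minimum with sevoflurane and called lower with desflurane (2.29 and 0.522). *Nr1i3*, which encodes the constitutive androstane receptor, was at 25.8 and 26.3 with sevoflurane and 44.0 and 29.6 with desflurane, and *Hnf4a*, a master regulator of hepatocyte genes, at 86.4, 102, 129 and 97.9 in the order of the libraries above. Neither was called.

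Genes that share substrates with the Cyp2c enzymes included some that were called in either direction. Over all named genes above the minimum, 8.75% were called with sevoflurane and 9.65% with desflurane. Of the 18 listed genes of arachidonic acid epoxides and omega-hydroxylation in the tables, sevoflurane 6 h had 1 called higher and 2 lower, and desflurane 6 h had 1 higher and 3 lower. *Cyp4a2* and *Cyp4a3*, which hydroxylate the end carbon of fatty acids, were called lower with both agents (*Cyp4a2* at 558 and 76.9 with sevoflurane and at 1075 and 165 with desflurane), *Cyp4a1* was called higher with sevoflurane (7.55 and 15.1) and *Cyp4f6* lower with desflurane (79.1 and 38.0), while the epoxygenase *Cyp2c23* stayed between 316 and 377. *Ephx2*, whose product hydrolyses the epoxides, was at 11.5 and 12.4 with sevoflurane and at 6.73 and 14.4 with desflurane, called higher with desflurane. Of the 15 retinoid handling genes in the tables, only the retinol dehydrogenase gene *Rdh16* was called, higher with desflurane, beside the retinoic acid hydroxylase *Cyp2c7* with its ratio of 0.609 there. Some zonation markers were called as well. Of the 14 periportal genes, sevoflurane 6 h had 4 called higher and 1 lower and desflurane 6 h 5 and 2, led by the serine dehydratase gene *Sds* (8.66 and 1135 with sevoflurane, 19.8 and 714 with desflurane) and with the urea cycle genes *Asl* and *Arg1* among them with both agents. Of the 14 pericentral genes, sevoflurane 6 h had 2 called higher and 0 lower and desflurane 6 h 3 and 1, among them *Oat* with both agents (ratios of 2.89 and 2.83). The median log2 difference was 0.22 and 0.36 for the periportal list with sevoflurane and desflurane. For the 13 pericentral genes whose TPM averaged 1 or more it was 0.05 and 0.37. Over all named genes whose TPM averaged 1 or more it was 0.05 and −0.10. The part of these differences in the Cyp2c values was not tested.

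Few members had a profile over the 4 libraries like that of another member. Likeness was measured as the Euclidean distance between centred log2(TPM + 1) profiles among the 3993 genes whose TPM averaged 10 or more, over 4 libraries only. The closest members were *Cyp2c11* and *Cyp2c23*, at a distance of 0.317, yet *Cyp2c23* ranked only at 193 among the genes nearest to *Cyp2c11*. Among the 3 genes nearest to *Cyp2c22* were *Acmsd* and *Nr3c1*, at distances of 0.102 and 0.163. *Nr3c1*, which encodes the glucocorticoid receptor, was at 52.2 and 28.5 with sevoflurane and at 36.4 and 24.9 with desflurane. *Cyp2c12* had no close neighbour, its nearest being *Amdhd1* at 0.951. The nearest to the others were *Aldh1b1*, *Ethe1* and *Nxpe4* (*Cyp2c11*), *Tubb5*, *Rpl31* and *Tagln2* (*Cyp2c13*), *Mmgt1*, *Mrps18b* and *Slc30a1* (*Cyp2c23*), *Apeh*, *Zmpste24* and *Rnf4* (*Cyp2c6v1*) and *Hist2h3c2*, *Mgat2* and *Dnajb1* (*Cyp2c7*), at distances between 0.0259 and 0.174, and with *Scd* and *LOC257642* following for *Cyp2c12*. With so many genes and so few libraries, near profiles are common, and they are given as a description only.

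Each table also lists loci assembled from the reads without a gene name, and these give a second reading of the same genes. It is drawn from the same reads and is not independent of the named rows. At *Cyp2c23* in sevoflurane 0 h the locus and the row were the same record (377). At *Cyp2c22* and *Cyp2c23* the assembled locus on the same strand was within 2% of the named row in every library. The rows of *Cyp2c11* and *Cyp2c7* corresponded to separate loci at either end of their long spans, as at 257676177 to 257690084 (TPM of 1196) and 257970369 to 258004427 (1725) for *Cyp2c11* in sevoflurane 0 h, with summed levels between 1.64 and 1.84 times the row. Their ratios of 6 h to 0 h were close to those of the rows, 1.08 and 1.11 for *Cyp2c11* and 1.23 and 0.604 for *Cyp2c7*. At *Cyp2c6v1* the locus reached beyond the row (147682581 to 147887684 in sevoflurane 0 h) and stood at 1998, 1947, 1829 and 1950 in sevoflurane 0 h and 6 h and desflurane 0 h and 6 h. Read in this way its ratio with sevoflurane was 0.974 in place of 1.26, so the higher value of *Cyp2c6v1* with sevoflurane depends on which of the records is read. In sevoflurane 6 h, 1 locus (258709726 to 258877070, TPM of 958) ran across both *Cyp2c12* and *Cyp2c13*, so the 2.26-fold difference of *Cyp2c12* has no second reading.

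**Figure D4:**
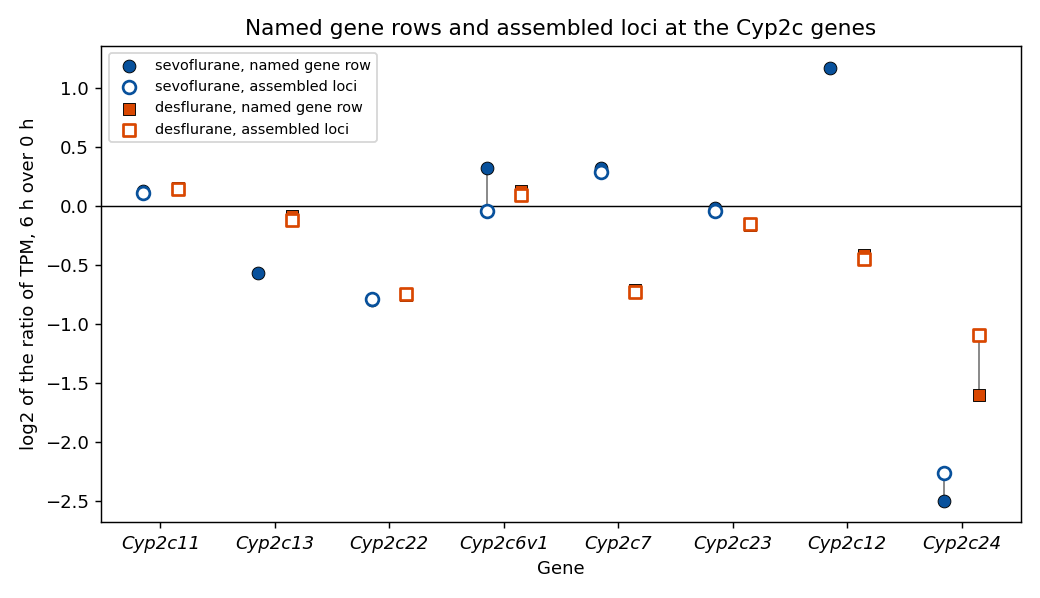
The log2 ratio of TPM at 6 h over 0 h at each Cyp2c gene, from the named gene row (filled) and from the assembled loci on its strand (open), with circles for sevoflurane, squares for desflurane and grey lines joining the pair. The pairs lie close together except at *Cyp2c6v1* with sevoflurane and at the low *Cyp2c24*, and the open circles of *Cyp2c12* and *Cyp2c13* are missing because their locus in sevoflurane 6 h covers both genes.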

How the data were processed

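RNA sequencing of 4 rat liver libraries was analysed from the gene abundance tables deposited by the authors, 1 per library. Per the labels, liver pieces were kept in RNAlater, RNA came from an RNeasy Midi kit and libraries were made with a stranded total RNA kit (TruSeq Gold). The submitters' processing notes name HISAT2, SAMtools, StringTie and the build rn6, without versions or roles. The sources used here do not say how reads that fit several copies were counted.

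Each table lists named genes and assembled loci. In the deposited TPM column the assembled loci by themselves fill the usual total and named genes add between 0.766 and 0.789 of it, so the deposited TPM was handled as a score. The deposited FPKM differs from TPM by a constant factor per library (1.48 to 1.57), and the deposited coverage, the mean depth per base, divided by FPKM gave the aligned bases. The tables hold no read counts, so values carry no counting interval.

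Rows of 1 symbol were summed and rows spanning 200 bp or less left out (16999 of 17455 symbols kept). A gene was called when its TPM was above 2 in the higher library and the ratio above 2. These comparisons have no p-value. Counts of called genes in a list are out of all its genes in the tables, including those under the minimum, which could not be called. The shares of all named genes are out of genes above the minimum only. The change over both agents was tested with limma 3.58.1 in R 4.3.3 (eBayes with trend, two-sided, Benjamini-Hochberg over 8024 genes whose TPM averaged 2 or more, with a term for the agent). Log2 differences are on the log2(TPM + 1) scale, which understates the change of low genes.

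Genes were named by rule: every member, the 3 genes nearest in profile to each member with a mean TPM of at least 10, up to 6 genes per list called alike with both agents, and *Por*, *Dbp*, *Hnf4a*, *Nr1i2*, *Nr1i3*, *Stat5b*, *Ephx2* and *Cyp2b1*. A gene that the rule names is not reported here. Other genes named beside them illustrate their lists and were picked after their values were seen. The members, gene lists and tests were chosen with earlier results of these data known. Promoter sequences and gene order came from RefSeq tables of GRCr8, matched by symbol, and motif letters were searched on both strands except TATAAA, which was searched on the strand of the gene. Promoter pairs were aligned with biopython 1.88 (match 1, mismatch −1, gap opening −2, gap extension −0.5). The planned comparison of protein sequences was not run, and proteins were not analysed here. The alternatives covered the minimum level, the ratio, scaling, pseudocount, value column, control used, agent block, libraries left out and assembled loci, the last added after seeing the data. Markers of Kupffer cells summed to between 427 and 569, of sinusoidal endothelium to between 122 and 146, of stellate cells to between 118 and 181, of cholangiocytes to between 7.05 and 8.67, of pancreatic acinar cells to between 25.4 and 31.6 and of kidney tubules to between 1.79 and 2.93 TPM.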

Additional observations from a re-analysis of the deposited data

Results flagged for a closer look

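A pair of members had changes of opposite sign with the 2 agents, each read against its own control. The log2 difference of *Cyp2c12* between 6 h and 0 h was 1.16 with sevoflurane and −0.40 with desflurane. For *Cyp2c7* it was 0.32 and −0.71. The controls differed 1.78-fold at *Cyp2c7*, and both of its signs reversed against the control of the other agent (−0.50 and 0.11). With 1 library per group these differences between the agents were not tested.

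Assembled loci without a gene name beside the Cyp2c genes held reads that the comparisons of named genes did not use. A locus on the plus strand of chromosome 1 at 148192314 to 148268029, 72.5 kb beyond *Cyp2c7*, was at a TPM of 132 in sevoflurane 6 h against 52.3 in sevoflurane 0 h, and at 279 and 138 in desflurane 0 h and 6 h. Against their own controls the agents thus differed in direction. The controls themselves differed 5.34-fold here and the 6 h libraries stood at a ratio of 1.04, so both directions reverse against the control of the other agent. A locus at 147696941 to 147700103 on the plus strand, 13.8 kb before *Cyp2c6v1*, was at 58.1 in sevoflurane 6 h and listed in no other library. Such loci of a single library were also found in a control, as at 147865733 to 147867465 on the plus strand (TPM of 239 in desflurane 0 h). This stretch lay inside the longer locus assembled over *Cyp2c6v1* in every library. The stretch at 147696941 to 147700103 lay inside it outside sevoflurane 6 h, apart from its first bases in the desflurane libraries.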

How the results depend on the processing

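Without a minimum TPM, *Cyp2c24* added 1 lower call with each agent. With a ratio above 1.5 in place of 2, 1 member was lower with sevoflurane, 2 were lower with desflurane, 1 was higher and 1 lower between the controls, and 1 was higher in desflurane 6 h than in sevoflurane 6 h. With a ratio above 3, 0 members were called higher with sevoflurane. Against the control of the other agent, 2 members were lower with desflurane (*Cyp2c12* and *Cyp2c22*). The ratio of summed Cyp2c TPM stayed between 0.891 and 0.959 with sevoflurane and between 0.890 and 0.977 with desflurane over the alternatives run. Scaling by the median of ratios took away a shift of all genes of −0.12 (desflurane 6 h against 0 h) and 0.13 (desflurane 0 h against sevoflurane 0 h) on the log2 scale and turned the sign of *Cyp2c13* there (−0.08 to 0.04, and 0.12 to −0.01).

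In the limma test 376 genes were higher and 316 lower. There were 204 lower without the agent block, and 19 higher and 6 lower with 0 members without a minimum level. Leaving out 1 library at a time, without the block and taking a lone library to vary like the other time, gave between 106 and 317 genes higher, between 57 and 274 lower and between 0 and 2 members past the threshold. The 2 were *Cyp2c12* (1.57) and *Cyp2c13* (−0.63) without desflurane 6 h. The causes were not tested beyond what leaving out samples or genes implies. The agent term pairs each 6 h library with the control of its agent, and the labels give no replicate numbers for another pairing. Read depth limits *Cyp2c24*, whose depth was at most 4.75 per base.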
